A study of Homo sapiens and Mus musculus with 24 samples.

Results

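A stretch of the short arm of chromosome 3 held 168 measured genes whose RNA levels sat lower, as a group, in 3 Caco-2 lines derived from DNMT3A-deficient cells than in the parental WT cells. The block was defined by position and level. Its genes have their lowest annotated start between 2.0 and 45.2 Mb of chromosome 3 (GRCh38) and reach a mean of at least 1 CPM (a count scaled to a common library total) over 15 libraries. Of 58051 human genes counted, 626 lie in this interval, 458 of them below that level, and the remaining 168 are the members, of which 164 carry a gene symbol. At the level threshold, GRIP2 at 1.20 CPM was the lowest member and the gene listed as ENSG00000271020, at 0.998 CPM, lay just outside. Genes reaching 1 CPM anywhere in the genome numbered 13761. The bounds were set on these same comparisons with WT, so the lower level against WT chose the interval and is given as a description without a test.

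The libraries were made from total RNA of Caco-2, a human colorectal carcinoma line used as a model of the intestinal epithelium. WT cells (4 libraries) were unedited. ΔDNMT3A (4 libraries) is 1 clone in which CRISPR/Cas9 disrupted DNMT3A, the enzyme that places new methyl groups on cytosines. DNMT3A1 (3 libraries; replicate 3 was not analysed here) and DNMT3A2 (4 libraries) are clones of that knockout carrying a tagged long or short isoform under the CMV promoter, selected with puromycin, so both also carry the knockout. Clone and genotype cannot be told apart in any of the 3 lines, and where nothing says that libraries came from separate cultures, p-values measure only the spread between libraries. A second set of libraries came from purified intestinal epithelial cells of adult mice at steady state, 4 from Dnmt3a fl/fl and 4 from Dnmt3a ΔIEC animals. In the latter, Cre driven by the Villin promoter removes Dnmt3a exons in the intestinal epithelium.

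Genes that neighbour each other on a human chromosome mostly have separate promoters and unrelated functions. The short arm of chromosome 3 is known for the tumour suppressor VHL and for CTNNB1, which encodes β-catenin, the co-activator at the end of the Wnt pathway. It also holds the receptors TGFBR2, PPARG and RARB and several genes of the ribosome.

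DNMT3A itself was at 65.4 ± 2.48 CPM for WT (SD, n = 4) and 20.7 ± 1.27 CPM for ΔDNMT3A (SD, n = 4). It reached 37.7 ± 1.12 CPM for DNMT3A1 (SD, n = 3), but only 21.8 ± 1.36 CPM for the libraries labelled DNMT3A2 (SD, n = 4), about the level of the knockout. Counts over the gene cannot separate RNA of the edited gene from that of the reintroduced isoform. By immunoblot, the paper reports loss of the protein in the knockout and re-expression of both isoforms. Protein was not analysed here. Of 9 markers of the intestinal epithelium, 7 reached 1 CPM in every library, CDX1 was at or near 0 and KRT20 ranged from 0.460 to 17.3 CPM. Of 5 immune markers, 1 (LYZ) did so, with means of 19.1 CPM for WT, 15.4 for ΔDNMT3A, 4.30 for DNMT3A1 and 2.5 for DNMT3A2, while PTPRC, which defines leukocytes, stayed at or near 0. Of 6 markers of fibroblasts and endothelium, 4 reached 1 CPM, none above 29.2 CPM in any library. The part these markers play in the levels of the block was not tested. In these bulk samples, fewer cells of a type and less RNA per cell cannot be told apart. Total counts ranged from 26653192 to 37799624 in WT, from 30242279 to 42161299 in ΔDNMT3A, from 25923894 to 35336962 in DNMT3A1 and from 22104408 to 31903940 in DNMT3A2.

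The median over the members was lower than in WT in each library of the 3 lines. Each library was set against the mean of WT, and a WT library against the mean of the other WT libraries. The median log2 ratio over the members was -0.002, 0.001, -0.035 and 0.033 in the WT libraries and -0.296, -0.305, -0.307 and -0.314 in ΔDNMT3A. It was -0.330, -0.299 and -0.289 in DNMT3A1 and -0.252, -0.284, -0.230 and -0.251 in the libraries labelled DNMT3A2. No library of the 3 lines reached the range of WT. The rest of chromosome 3 (594 genes) stayed between -0.10 and 0.02 in all 15 libraries, and the other chromosomes between -0.04 and 0.03. Both values are medians over stretches or chromosomes that were lower and others that were higher, as given below. Counted as a share of all reads, the block made up 0.855% ± 0.0036 (SD, n = 4) in WT, 0.639% ± 0.0041 (SD, n = 4) in ΔDNMT3A, 0.687% ± 0.0075 (SD, n = 3) in DNMT3A1 and 0.715% ± 0.0028 (SD, n = 4) in DNMT3A2. Libraries were run on 2 lanes with every line on both, and the median of the fitted fold changes was -0.30 on either lane for ΔDNMT3A, -0.30 and -0.29 for DNMT3A1 (with 1 library on the latter lane) and -0.27 and -0.21 for the libraries labelled DNMT3A2.

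Fitted per gene, the median log2 fold change of the members was -0.31 in ΔDNMT3A against WT, 80.9% of the WT level, with a middle range of the genes from -0.51 to -0.15. The median of all genes of at least 1 CPM was -0.003. In this comparison 148 of 168 members lay below 0, beside 50.5% of all genes of at least 1 CPM, and 117 were lower with no overlap between the libraries, beside 31.0%. Of the members, 128 were called lower and 11 higher by edgeR at an adjusted p under 0.05, where 31.0% of all genes were called lower and 31.2% higher. In DNMT3A1 the median was -0.30 (81.5% of WT), 142 members lay below 0 (51.8% of all genes), 122 were lower without overlap (38.2% of all genes), and 121 were called lower and 14 higher, beside 32.7% and 32.6% of all genes. The libraries labelled DNMT3A2 had a median of -0.24 (84.7% of WT), with 132 members below 0 (49.8% of all genes), 104 lower without overlap (34.4% of all genes), 112 called lower and 20 higher, beside 34.4% and 34.3% of all genes. These 3 comparisons share the 4 WT libraries, and since the interval was chosen on them nothing is read from the counts. As a description, the upper quartile of the members was -0.15, -0.12 and -0.04 in the 3 lines, so the lower median did not rest on a few genes. The spread between the quartiles of the members was 0.36, 0.35 and 0.46, against 0.44, 0.54 and 0.53 for all genes of at least 1 CPM. The lower median was seen at low and high levels of expression, with no common order. In ΔDNMT3A the 56 members of lowest level had a median of -0.23, the 56 of middle level -0.29 and the 56 of highest level -0.36. The same sets had -0.31, -0.31 and -0.26 in DNMT3A1 and -0.28, -0.30 and -0.22 in the libraries labelled DNMT3A2. In ΔDNMT3A members on the plus and minus strands had -0.30 and -0.31.

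**Figure D1:**
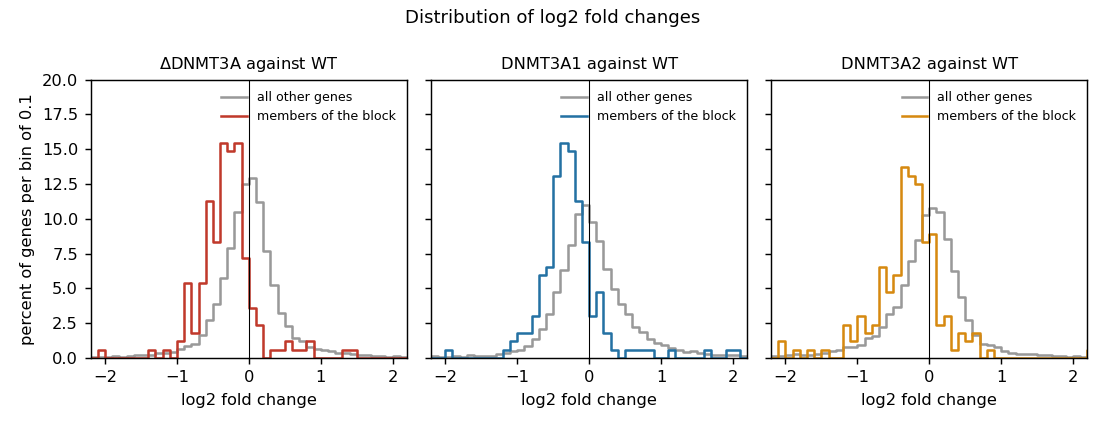
Percent of genes (vertical axis) per bin of 0.1 in log2 fold change against WT (horizontal axis, shown from -2.2 to 2.2) for the members of the block in colour and all other genes of at least 1 CPM in grey, 1 panel per line. The coloured outline lies to the left of the grey one in each panel, with medians of -0.31, -0.30 and -0.24.

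The shift did not end where the interval ends. Inside the upper bound lay ZDHHC3, a palmitoyltransferase, EXOSC7, an exosome subunit, and CDCP1, a cell surface protein, with log2 fold changes of -0.32, -0.16 and -0.17 in ΔDNMT3A. The nearest measured genes outside it, LARS2 (the mitochondrial leucyl-tRNA synthetase), LIMD1 (a LIM domain protein) and SACM1L (a phosphoinositide phosphatase), were at -0.29, -0.26 and -0.18. The 3 outer genes were at -0.81, -0.48 and -0.23 in DNMT3A1 and at -0.32, -0.24 and -0.27 in the libraries labelled DNMT3A2. Walking on in runs of 15 consecutive genes, the first run with a median above 0 began at CHDH (53812335) in ΔDNMT3A and in DNMT3A1 and at CACNA1D (53328963) in the libraries labelled DNMT3A2. From the bound up to and including the first gene of that run lay 127 genes with a median of -0.35 in ΔDNMT3A. There were 127 with -0.43 in DNMT3A1 and 126 with -0.35 in the libraries labelled DNMT3A2. At the other side no gene of chromosome 3 before 2.0 Mb reached 1 CPM, so that edge cannot be placed. The innermost genes there were CNTN4, TRNT1 (the CCA-adding tRNA enzyme) and CRBN (a ubiquitin ligase receptor).

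**Figure D2:**
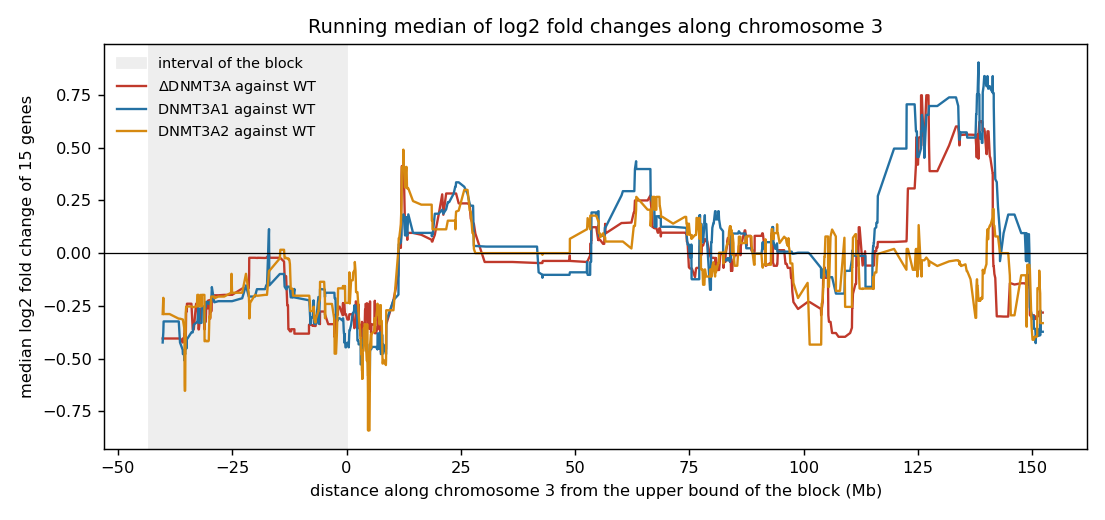
Running median of the log2 fold change against WT over 15 consecutive genes (vertical axis) by distance in Mb from the upper bound of the block (horizontal axis), 1 line per comparison, with the interval of the block shaded. The 3 lines stay mostly below 0 through the shaded interval and past its right edge, and past the interval the first run above 0 begins at 53.8 Mb of the chromosome in ΔDNMT3A and DNMT3A1.

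Within the interval the level of the shift was uneven. In 5 Mb bins the ΔDNMT3A medians ran from -0.48 at 0 to 5 Mb (8 genes) to -0.02 at 25 to 30 Mb (9 genes), and in DNMT3A1 from -0.47 at 5 to 10 Mb (24 genes) to -0.15 at 25 to 30 Mb. In the libraries labelled DNMT3A2 the lowest bin was also 5 to 10 Mb (-0.42) and the highest was 30 to 35 Mb (-0.03, 21 genes). Among 22 chromosomes with at least 100 measured genes, whole-chromosome medians ranged from -0.22 to 0.26 in ΔDNMT3A, from -0.40 to 0.53 in DNMT3A1 and from -0.34 to 0.28 in the libraries labelled DNMT3A2. Further along chromosome 3, 34 genes at 180 to 185 Mb had medians of 0.57 and 0.62 in ΔDNMT3A and DNMT3A1 and -0.15 in the libraries labelled DNMT3A2. The 33 genes at 195 to 200 Mb had medians of -0.29, -0.37 and -0.33 in the 3 lines. Chromosome 20 (383 genes) had -0.18, -0.33 and -0.34. A lower median in all 3 lines was thus not particular to the block.

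Of all members, 76.2% were called lower in ΔDNMT3A, 72.0% in DNMT3A1 and 66.7% in the libraries labelled DNMT3A2, and 6.55%, 8.33% and 11.9% higher. The counts by role that follow describe the block and set no group apart from it. Of protein synthesis and RNA processing, all 12 tested were called lower in ΔDNMT3A, 11 in DNMT3A1 and 9 in the libraries labelled DNMT3A2, with none called higher and medians of -0.25, -0.39 and -0.20. RPSA, RPL32, RPL15 and RPL14, which encode ribosomal proteins and had the highest CPM of all members, belong here. RPSA was at 784, 751, 771 and 802 CPM in WT, at 575, 556, 575 and 539 CPM in ΔDNMT3A, at 544, 520 and 550 CPM in DNMT3A1 and at 614, 608, 617 and 611 CPM in the libraries labelled DNMT3A2. All WT libraries were above all others. RPL32 had log2 fold changes of -0.36, -0.38 and -0.20 in the 3 lines, RPL15 -0.43, -0.31 and -0.10, and RPL14 -0.28, -0.41 and -0.10. Ribosomal protein genes have near-identical processed copies elsewhere in the genome, so how reads were split between copies is uncertain for these 4.

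Of the secretory pathway, 15 of 17 genes were called lower and none higher in ΔDNMT3A, 14 lower and 1 higher in DNMT3A1, and 13 lower and 2 higher in the libraries labelled DNMT3A2. The highest in each was OSBPL10, an oxysterol-binding protein family member (0.01, 0.18 and 0.36). The lowest was CRTAP, a collagen-modifying protein, in ΔDNMT3A (-0.69) and TRAK1, a mitochondrial transport adaptor, in the libraries labelled DNMT3A2 (-0.80). All 6 actin and cytoskeleton genes were called lower in ΔDNMT3A, 5 in DNMT3A1 and 4 in the libraries labelled DNMT3A2. KIF15, a mitotic kinesin, was at -0.63, -0.49 and -0.24.

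Of 8 DNA repair genes tested, 7 were called lower in ΔDNMT3A, 7 in DNMT3A1 and 6 in the libraries labelled DNMT3A2, and none higher. OGG1, the glycosylase for oxidised guanine, had log2 fold changes of -0.53, -0.73 and -0.71. XPC, the damage sensor of nucleotide excision repair, had -0.50, -0.17 and -0.53, and FANCD2, of the Fanconi pathway, -0.57, -0.45 and -0.23. Among ubiquitin ligase and autophagy genes, 7 of 8 were called lower in ΔDNMT3A, 5 in DNMT3A1 and 2 in the libraries labelled DNMT3A2, where 2 were called higher. VHL, which directs hypoxia-inducible factors to degradation, was at 88.2 ± 2.38 CPM for WT (SD, n = 4), 59.6 ± 0.791 CPM for ΔDNMT3A (SD, n = 4), 68.4 ± 1.17 CPM for DNMT3A1 (SD, n = 3) and 74.4 ± 2.00 CPM for the libraries labelled DNMT3A2 (SD, n = 4). CRBN was at -0.50 and -0.38 in ΔDNMT3A and DNMT3A1 but at 0.09 in the libraries labelled DNMT3A2.

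Receptors and signalling genes had the lowest group median in ΔDNMT3A (-0.52, with 12 of 13 called lower and none higher). In DNMT3A1 9 were called lower and none higher (-0.24), and in the libraries labelled DNMT3A2 11 lower and 2 higher (-0.63). CTNNB1 (chromosome 3, 41194837 to 41260096) was near the block median in ΔDNMT3A (-0.34 beside -0.31). In the other 2 lines it lay above that median, by less than the limit of 1 set below for a departure. It was at 221, 230, 217 and 230 CPM in WT, at 176, 178, 186 and 168 CPM in ΔDNMT3A, at 222, 212 and 219 CPM in DNMT3A1 and at 309, 301, 310 and 323 CPM in the libraries labelled DNMT3A2. The knockout lay below WT, DNMT3A1 overlapped WT, and the last group lay above it. TGFBR2, the ligand-binding TGF-β receptor, was at -0.86, -0.23 and -0.72. MYD88, the adaptor of Toll-like receptors, was at -0.16, -0.57 and -0.41. The lowest were IL17RE, a subunit of the IL-17C receptor, in ΔDNMT3A and the libraries labelled DNMT3A2 (-1.17 and -1.18) and SNRK, a kinase of the AMPK family, in DNMT3A1 (-1.12).

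Of 11 chromatin and transcription regulators, 8, 9 and 8 were called lower and 0, 1 and 1 higher in ΔDNMT3A, DNMT3A1 and the libraries labelled DNMT3A2, with VGLL4, a cofactor of TEAD factors, lowest in ΔDNMT3A (-0.74). The 10 zinc finger genes tested at 40 to 45 Mb had 8, 8 and 5 called lower and 0, 0 and 2 higher, and ZNF501 was the highest in each line (0.07, 0.19 and 0.59). The 12 tested genes of transport and metabolism had 7, 8 and 9 called lower and 2, 3 and 1 called higher. SLC6A6, the taurine transporter, was at -0.26 in ΔDNMT3A, -1.06 in DNMT3A1 and -0.17 in the libraries labelled DNMT3A2. The 8 tested genes of adhesion, matrix and surface had 7, 5 and 4 called lower and 0, 1 and 2 higher. The 5 nuclear receptors had 2, 3 and 4 called lower and 1, 2 and 1 higher.

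A member was said to depart where its log2 fold change differed from the median of the block by at least 1 and its libraries, moved by that median, did not overlap WT. By this measure 7 members departed in ΔDNMT3A (5 upward, 2 downward), 8 in DNMT3A1 (7 and 1) and 8 in the libraries labelled DNMT3A2 (3 and 5), which is 4.17%, 4.76% and 4.76% of the members. Of all genes of at least 1 CPM, 6.03%, 8.55% and 8.83% departed in the same way from the median of all genes. In all, 15 members departed in at least 1 line, 8 of them in exactly 1 and 6 in exactly 2, and 0 departed in the same direction in all 3. The departures use the comparisons that chose the block and are given without a test.

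**Figure D3:**
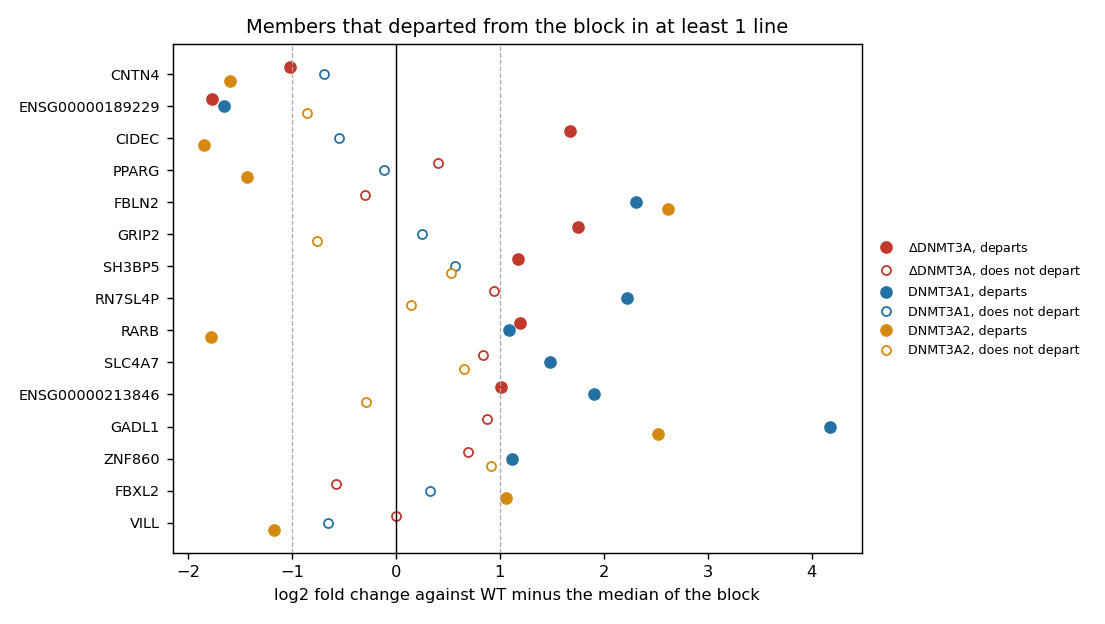
Log2 fold change against WT minus the median of the block (horizontal axis) for the 15 members that departed in at least 1 line, in order along the chromosome from top to bottom; filled points depart, open points do not, and dashed lines mark -1 and 1. GADL1 in DNMT3A1 lies farthest out at 4.18, and RARB has filled points on both sides.

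FBLN2 (chromosome 3, 13549131 to 13638422, plus strand) encodes fibulin 2, a glycoprotein of the extracellular matrix. It was at 13.4, 12.8, 13.3 and 13.9 CPM in WT, at 8.02, 8.72, 10.4 and 8.09 CPM in ΔDNMT3A, at 53.7, 53.5 and 52.2 CPM in DNMT3A1 and at 72.3, 67.5, 67.3 and 69.7 CPM in the libraries labelled DNMT3A2. The knockout lay below WT and both isoform lines above it, with departures of -0.30, 2.31 and 2.62. CIDEC (9866711 to 9880254, minus strand), which encodes a lipid droplet protein, took the opposite order. Its levels were 2.67, 2.27, 2.31 and 2.69 CPM in WT, 6.80, 5.40, 6.82 and 6.66 CPM in ΔDNMT3A, 1.17, 1.39 and 1.52 CPM in DNMT3A1 and 0.672, 0.678, 0.354 and 0.645 CPM in the libraries labelled DNMT3A2. The knockout was above WT and both isoform lines below it, with departures of 1.67, -0.55 and -1.85. A copy of the gene, CIDECP1, is also a member and ranged from 4.89 to 6.56 CPM over all 15 libraries, so how reads were split between the pair is uncertain.

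The stretches just before the start sites of these 2 members are shown because they stand far apart in CG dinucleotides, the sites that DNMT3A methylates. Each is 250 bases upstream of the RefSeq start (GRCh38.p14), written 5′ to 3′ on the gene's strand with every CG in capitals. That of FBLN2 is chr3:13548875-13549124 on the plus strand and holds 33 CG, and that of CIDEC is chr3:9880254-9880503 on the minus strand and holds 2.
FBLN2: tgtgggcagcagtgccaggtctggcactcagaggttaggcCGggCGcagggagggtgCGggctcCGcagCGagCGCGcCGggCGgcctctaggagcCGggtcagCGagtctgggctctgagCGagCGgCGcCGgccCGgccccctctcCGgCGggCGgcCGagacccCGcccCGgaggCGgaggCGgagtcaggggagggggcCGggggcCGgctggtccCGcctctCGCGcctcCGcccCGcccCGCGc
CIDEC: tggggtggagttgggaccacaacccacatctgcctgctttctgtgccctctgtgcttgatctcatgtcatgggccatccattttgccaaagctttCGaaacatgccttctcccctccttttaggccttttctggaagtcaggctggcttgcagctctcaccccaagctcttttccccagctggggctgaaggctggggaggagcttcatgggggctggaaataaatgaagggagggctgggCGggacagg

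Over the members, 139 of 168 matched a RefSeq window of this kind. Their median was 27 CG, beside 26 over 10361 expressed genes and 14 over all 35116 windows, and 10.8% of them held under 10 CG against 11.7% of expressed genes. For ΔDNMT3A the median change was -0.34 (log2) over the 15 members with under 10 CG and -0.30 over the 124 others. A distance of at least 0.5 from the block median was reached by 33.3% of the 15 and 10.5% of the 124 in ΔDNMT3A, by 13.3% and 10.5% in DNMT3A1 and by 40% and 16.9% in the libraries labelled DNMT3A2. The shares at that distance were not counted over all expressed genes, so nothing particular to the block is read from them. Methylation was not analysed here, and the CG counts are a description of the letters alone.

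Among the nuclear receptors, RARB (25174332 to 25597932), a retinoic acid receptor, was the single member that departed in all 3 lines. It was at 2.58, 2.42, 2.63 and 2.67 CPM in WT, at 5.15, 3.98, 4.40 and 5.40 CPM in ΔDNMT3A, at 4.79, 4.18 and 4.22 CPM in DNMT3A1 and at 0.633, 0.723, 0.636 and 0.548 CPM in the libraries labelled DNMT3A2. The knockout and DNMT3A1 were above all WT libraries and the last group below them. PPARG (12287368 to 12434356), the receptor that drives lipid storage, was at 20.6, 20.8, 20.8 and 21.1 CPM in WT, at 21.4, 21.9, 21.1 and 24.5 CPM in ΔDNMT3A, at 14.0, 15.6 and 16.5 CPM in DNMT3A1 and at 6.48, 6.69, 6.47 and 6.41 CPM in the libraries labelled DNMT3A2. ΔDNMT3A overlapped WT, and the 2 isoform lines lay in steps below it. NR1D2, a circadian repressor, had the highest fold change of the 5 receptors in the libraries labelled DNMT3A2 (0.20) and THRB, a thyroid hormone receptor, had -0.91 there.

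GADL1 (30726200 to 30894765), which encodes a decarboxylase that resembles glutamate decarboxylase, had the largest departure measured in the block. It was at 1.44, 1.54, 0.835 and 1.45 CPM in WT, at 1.99, 1.90, 2.02 and 1.86 CPM in ΔDNMT3A, at 17.9, 19.7 and 19.8 CPM in DNMT3A1 and at 6.84, 5.69, 5.91 and 6.93 CPM in the libraries labelled DNMT3A2. All 3 lines lay above WT, with departures of 0.87, 4.18 and 2.52. CNTN4 (2098813 to 3057956), a neuronal adhesion molecule and the first member along the chromosome, went the other way. It was at 58.8, 60.6, 61.8 and 60.5 CPM in WT, at 23.5, 21.9, 25.2 and 25.7 CPM in ΔDNMT3A, at 30.7, 28.6 and 30.3 CPM in DNMT3A1 and at 15.6, 15.7, 17.4 and 18.1 CPM in the libraries labelled DNMT3A2. No library of the 3 lines reached the level of WT, and the departures were -1.02, -0.69 and -1.60.

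**Figure D4:**
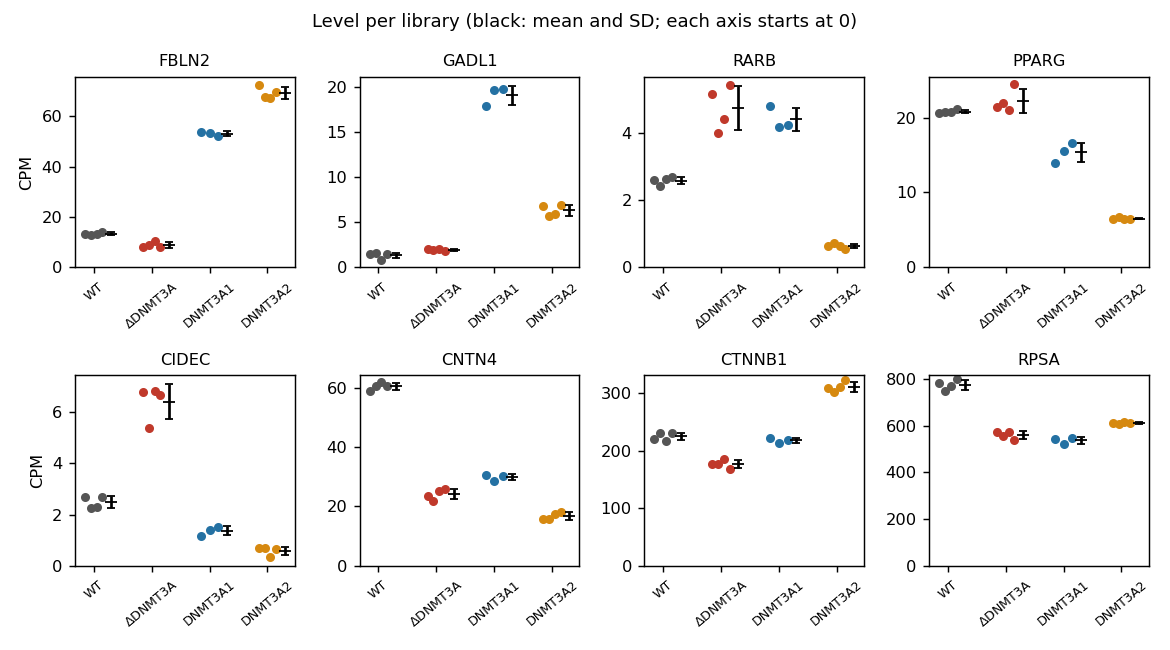
Level in CPM (vertical axes, each from 0) of 8 members in every library, grouped by line; points are libraries and black marks the mean and SD. RPSA is lower in the 3 lines than in WT, FBLN2 and GADL1 are highest in the isoform lines, CIDEC is highest in ΔDNMT3A, RARB and PPARG are lowest in the libraries labelled DNMT3A2, and CTNNB1 is highest there.

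Of the remaining departures, those of 4 named members were each in 1 line. SH3BP5, an exchange factor for RAB11, was at 15.8 ± 0.846 CPM for WT (SD, n = 4) and 28.8 ± 1.41 CPM for ΔDNMT3A (SD, n = 4), a departure of 1.18. SLC4A7, a sodium bicarbonate cotransporter, was at 12.0 ± 1.23 CPM for WT (SD, n = 4) and 26.9 ± 0.116 CPM for DNMT3A1 (SD, n = 3), a departure of 1.48. VILL, which encodes a villin-like actin-binding protein, was at 16.8 ± 1.43 CPM for WT (SD, n = 4) and 6.25 ± 0.453 CPM for the libraries labelled DNMT3A2 (SD, n = 4), a departure of -1.17. FBXL2, a substrate receptor of a ubiquitin ligase, was at 4.16 ± 0.173 CPM for WT (SD, n = 4) and 7.24 ± 0.317 CPM (SD, n = 4) there, a departure of 1.06. Each of these groups lay apart from WT. RN7SL4P, a pseudogene of the 7SL RNA of the signal recognition particle, passed the measure in DNMT3A1 through 1 library. Its levels were 16.3, 23.3, 19.8 and 17.7 CPM in WT and 25.4, 167 and 25.6 CPM in DNMT3A1, and its log2 fold change was 1.92 with and 0.44 without replicate 2. The other 4, with no group mean above 9.65 CPM, were GRIP2 and ZNF860, in 1 line each, ENSG00000189229, downward in ΔDNMT3A and DNMT3A1 (-1.76 and -1.66), and ENSG00000213846, upward in the same lines (1.01 and 1.91).

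Comparisons among the 3 derived lines were not used to choose the block, and were tested. They share libraries with each other and with the comparisons above. The median log2 fold change over the members was 0.03 in DNMT3A1 against ΔDNMT3A, with 55 members called higher (32.7%) and 45 lower (26.8%) by edgeR, where 30.4% and 30.3% of all genes were. It was 0.08 in the libraries labelled DNMT3A2 against ΔDNMT3A, with 68 higher (40.5%) and 44 lower (26.2%), beside 33.8% and 34.1% of all genes. Between DNMT3A1 and the libraries labelled DNMT3A2 it was -0.05, with 46 higher (27.4%) and 65 lower (38.7%), beside 34.5% and 33.9%. These shares were not tested against those of all genes, and nothing particular to the block is read from them.

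Single members are given next, beginning with some that departed from the block. These were picked for their values against WT in the same libraries, so their differences between the lines are a description without a test. FBLN2 was higher by a log2 fold change of 2.61 in DNMT3A1 against ΔDNMT3A (SE 0.065) and by 2.99 in the libraries labelled DNMT3A2 (SE 0.055). GADL1 was higher by 3.31 in DNMT3A1 (SE 0.083) and by 1.71 in the libraries labelled DNMT3A2 (SE 0.101). CIDEC was lower in both, with log2 fold changes of -2.22 (SE 0.139) and -3.46 (SE 0.159). PPARG was also lower in both, with -0.52 and -1.77, and 1.25 separated DNMT3A1 from the libraries labelled DNMT3A2. RARB was at -0.10 in DNMT3A1 (SE 0.122) and at -2.91 in the libraries labelled DNMT3A2 (SE 0.164). Except for RARB in DNMT3A1, all libraries of the 2 lines lay apart in these comparisons. That adds no support, because the members were picked on the same libraries.

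CTNNB1 rose in both isoform lines against ΔDNMT3A, by log2 fold changes of 0.31 (SE 0.034, adjusted p = 1.22e-07 from edgeR) and 0.82 (SE 0.027, adjusted p = 9.72e-18 from edgeR), without overlap. VHL rose by 0.21 and 0.32, with adjusted p = 6.48e-05 and 4.04e-09 from edgeR. ACVR2B, an activin receptor, rose by 0.89 and 1.12, the highest of the receptors and signalling genes in both. TGFBR2 rose by 0.63 in DNMT3A1 (adjusted p = 2.90e-09 from edgeR) and by 0.14 in the libraries labelled DNMT3A2 (adjusted p = 0.010 from edgeR; without ΔDNMT3A replicate 1 it was 0.11 with adjusted p = 0.0505). ITGA9, an integrin subunit, rose by 1.52 in the libraries labelled DNMT3A2 and separated them from DNMT3A1 by -1.27. Beside the shares of all genes called given above, protein synthesis and RNA processing had 1 higher and 6 lower of 12 in DNMT3A1 and 8 higher and 3 lower in the libraries labelled DNMT3A2. RPL15 rose by 0.12 (0.08 with adjusted p = 0.0639 from edgeR without DNMT3A1 replicate 4) and 0.33, and RPSA by 0.13 in the latter. MRPS25, of the mitochondrial ribosome, fell by 0.51 on the log2 scale in DNMT3A1 and fell by 0.56 on that scale in the libraries labelled DNMT3A2. All 5 nuclear receptors were called higher in DNMT3A1 than in the libraries labelled DNMT3A2, where 34.5% of all genes were.

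The pathways in which members act were read from genes outside the block. Of 19 partners and targets of β-catenin, 4 rose and 13 fell in ΔDNMT3A against WT, 5 rose and 9 fell in DNMT3A1, and 13 rose and 4 fell in the libraries labelled DNMT3A2. AXIN2, a feedback inhibitor and target of the pathway, was at 39.2 ± 1.55 CPM for WT (SD, n = 4), 47.2 ± 0.918 CPM for ΔDNMT3A (SD, n = 4), 36.3 ± 0.859 CPM for DNMT3A1 (SD, n = 3) and 92.7 ± 0.711 CPM for the libraries labelled DNMT3A2 (SD, n = 4). NKD1, another target, was at 102, 29.7, 14.4 and 152 CPM in the same order. Of 17 tested genes of the VHL complex and the hypoxia response, 10 rose and 3 fell in ΔDNMT3A, 10 and 6 in DNMT3A1, and 7 and 9 in the libraries labelled DNMT3A2. EPAS1, which encodes HIF-2α, had 1.00, 1.49 and 0.70. Of the TGF-β genes tested, 4 rose and 5 fell of 11 in ΔDNMT3A, 5 and 4 of 11 in DNMT3A1, and 6 and 3 of 10 in the libraries labelled DNMT3A2. TGFBI, a TGF-β induced matrix protein, was the lowest in each line (-0.83, -1.15 and -0.79). These counts stand beside 31.2% of all genes called higher and 31.0% lower in ΔDNMT3A, 32.6% and 32.7% in DNMT3A1, and 34.3% and 34.4% in the libraries labelled DNMT3A2.

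In the mouse the same genes showed no common shift. Dnmt3a was at 93.9 ± 7.70 CPM for Dnmt3a fl/fl (SD, n = 4) and 46.1 ± 3.3 CPM for Dnmt3a ΔIEC (SD, n = 4), over the whole gene. A mouse gene of the same symbol existed for 136 members and 132 were tested, of which 56 lie on mouse chromosome 9, 53 on chromosome 6, 20 on chromosome 14 and 3 on chromosome 17. Their median log2 fold change in Dnmt3a ΔIEC against Dnmt3a fl/fl was 0.004, beside -0.004 for all 14626 genes tested, and 64 of 132 lay below 0. One gene, Trim71, was called by edgeR at an adjusted p under 0.05, with 0 called lower, where 0.691% of all genes were called. At an unadjusted p under 0.05 from edgeR there were 20, 13 higher and 7 lower. The share of all genes under that limit was not counted, so nothing is read from these. Trim71 encodes an RNA-binding protein of early development and was counted 1, 2, 0 and 1 times in the Dnmt3a fl/fl libraries and 25, 31, 14 and 14 times in Dnmt3a ΔIEC. Every Dnmt3a ΔIEC library was above every control, and per counted read the ratio was 22 (exact 95% interval 8.29 to 82.7, counting error only; adjusted p = 0.00455 from edgeR). DESeq2 gave Trim71 no adjusted p and called 2 other counterparts, Creld1 (-0.54) and Rpl32 (0.59), with adjusted p = 0.0287 and 0.0342. Human TRIM71 was at 162 ± 6.33 CPM for WT (SD, n = 4), 125 ± 7.30 CPM for ΔDNMT3A (SD, n = 4), 163 ± 9.01 CPM for DNMT3A1 (SD, n = 3) and 154.5 ± 6.95 CPM for the libraries labelled DNMT3A2 (SD, n = 4). Ctnnb1, at 1087 and 1120 CPM, and Pparg, at 122 and 116 CPM, had log2 fold changes of 0.04 (SE 0.128) and -0.08 (SE 0.159) in the mouse and did not pass the threshold (edgeR adjusted p = 0.915 and 0.877).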

How the data were processed

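Total RNA was sequenced as stranded paired reads from Caco-2 cells and purified mouse epithelial cells. The authors trimmed the reads with Trim Galore 0.4.4, aligned them with STAR 2.5.2b to GRCh38 or GRCm38 and deposited raw counts per gene from featureCounts (1.5.2 for human, by the submitters' notes, and 1.6.4 in the mouse headers). Per the file headers, human counts used the reverse strand and mouse counts ignored strand. Groups and replicate numbers came from the labels. The study's methods name DESeq2. Here, 2 groups at a time were fitted with edgeR 4.0.16 in R 4.3.3 (filterByExpr, TMM, quasi-likelihood test, Benjamini-Hochberg adjustment over all genes, threshold 0.05). DESeq2 1.42.0 was an alternative. Membership used CPM on library totals, and CPM by library are on TMM library sizes. Overlap between groups was read on log2(CPM + 0.5). Symbols were matched for 56948 of 58051 identifiers. Members and lists were chosen with earlier results of these data known. Named genes were the 4 highest and 4 lowest departures per line among departing members reaching 5 CPM in a group, the 3 genes on each side of each edge, the 4 members of highest CPM, 17 genes of known function, the highest and lowest of each list, and mouse counterparts past the threshold. CIDECP1, GRIP2, THRB, human TRIM71, and genes named in a line where this rule did not take them, were added after their values were seen. Mouse counterparts were paired by symbol. Each library held at least 16943626 counts. No molecular identifiers are named in the sources used here, so the interval given covers counting error only. The fits were tested on simulated counts. Figures were drawn with matplotlib 3.10.9 in Python 3.11.15. Some genes that the rule names are not reported here. Other settings are given in the closing section.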

Additional observations from a re-analysis of the deposited data

Results flagged for a closer look

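Of 87 groups of 4 libraries examined over the share and median of the block and 27 named members, 6 held a library set apart from the other three by Dixon's criterion, and chance gives about 1 in 20. WT replicate 3 had the lowest share of reads on the block (0.850%, where WT ranged to 0.858%). For GADL1 it was also the lowest WT library (0.835 CPM, range to 1.54). CIDEC was lowest in ΔDNMT3A replicate 2 (5.40 CPM, range to 6.82) and in replicate 3 of the libraries labelled DNMT3A2 (0.354 CPM, range to 0.678). RPL15 was lowest in ΔDNMT3A replicate 2 (449 CPM, range to 476), and XPC in ΔDNMT3A replicate 4 (29.3 CPM, range to 30.2).

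For 6 of the 27 named members, 2 lines lay on opposite sides of the same WT libraries without overlap. Such lines differ from each other by that choice, so their differences are given as a description without a test. Some members were named for departing in these same libraries, and the share over all genes was not counted. CIDEC was above WT in ΔDNMT3A and below it in both isoform lines, with log2 fold changes of -2.22 in DNMT3A1 and -3.46 in the libraries labelled DNMT3A2 against ΔDNMT3A. FBLN2 showed the opposite pattern (2.61 and 2.99). RARB separated the libraries labelled DNMT3A2 from ΔDNMT3A (-2.91) and DNMT3A1 from those libraries (2.80). CTNNB1 (0.82) and FBXL2 (1.70) were higher in the libraries labelled DNMT3A2 than in ΔDNMT3A. CRBN differed by 0.59 between the libraries labelled DNMT3A2 and ΔDNMT3A and by -0.47 between DNMT3A1 and those libraries. Its excess over WT in the libraries labelled DNMT3A2, 0.09, lost the threshold without WT replicate 1, 2 or 4, without DNMT3A2 replicate 2, 3 or 4, with library totals alone (0.03, adjusted p = 0.517 from edgeR), with no filter on low counts (adjusted p = 0.181), with the replicate block (adjusted p = 0.0558) and with DESeq2 (0.09, adjusted p = 0.0722).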

How the results depend on the processing

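The direction of the block's median held in all 6 comparisons under every alternative tried, and 268 of 289 recomputed medians and counts stayed within the spread between libraries or within 1.5 times the main count. With library totals alone in place of TMM, the median was -0.353 in ΔDNMT3A, -0.329 in DNMT3A1 and -0.299 in the libraries labelled DNMT3A2 against WT, 0.051 in DNMT3A1 against ΔDNMT3A and -0.014 in DNMT3A1 against the libraries labelled DNMT3A2. On lane 5 alone it was -0.272 in the libraries labelled DNMT3A2. With the upper bound moved to the first run above 0, chosen after seeing the data, it was -0.327, -0.361 and -0.299 in the 3 lines. The number of departing members followed its definition, at 13, 17 and 30 for a departure of 0.58, at 3, 5 and 5 for 1.5, and at 2, 5 and 5 among members of at least 5 CPM. DESeq2 called 2 mouse counterparts. Leaving out single libraries gave medians from -0.317 to -0.295, from -0.305 to -0.274 and from -0.267 to -0.233 against WT, from 0.019 to 0.036, from 0.059 to 0.082 and from -0.071 to -0.046 between the lines, and 6 to 7, 7 to 8 and 8 to 9 departing members.

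Replicate numbers did not pair the libraries (correlations of same-numbered deviations from -0.035 to 0.054). With the replicate block the medians were -0.304, -0.295 and -0.238, no count moved by over 1.5 times, and 4 named genes lost the threshold or, once, MYD88 in ΔDNMT3A gained it. Of 2023 values for named genes, 1959 kept direction and side. Reversals numbered 11. With library totals alone FBXL2 was -0.003 in DNMT3A1 against WT, RPL32 0.000 in DNMT3A1 against ΔDNMT3A, and OGG1 0.005 and CDCP1 0.011 in DNMT3A1 against the libraries labelled DNMT3A2. Leaving out single libraries, the others ranged from -0.001 to 0.067 for FBXL2 in DNMT3A1 against WT, from -0.173 to 0.005 for RN7SL4P in the libraries labelled DNMT3A2 against WT and from -0.215 to 1.697 in DNMT3A1 against ΔDNMT3A, and, in DNMT3A1 against the libraries labelled DNMT3A2, from -0.083 to 0.022 for CDCP1 (0.021 without DNMT3A2 replicate 2), from -0.082 to 0.013 for SH3BP5 and from -0.092 to 0.010 for OGG1. The cause was not tested, except that RN7SL4P rests on DNMT3A1 replicate 2. Depth limits members near 1 CPM and Trim71.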
